A study of Mus musculus with 8 samples.

Results

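The kinesin and dynein motor genes are the rows of the deposited gene table whose symbols mark a kinesin heavy chain, a kinesin light chain, the kinesin-2 adaptor Kifap3, a cytoplasmic dynein chain or one of the dynactin subunits Dctn1 to Dctn6. The name rule found 69 such rows among 24060, and 54 of them had enough counts to be tested. Of the 15 that were not tested, the highest had 66 counts over all libraries, and Dynlt1b, Dynlt1c, Kif12 and the pseudogene Kif4-ps had none. The libraries were made from dissociated dorsal root ganglia of lumbar levels L4 to L6 of mice, 4 from injury ganglia taken 3 days after a crush of 1 sciatic nerve and 4 from naive ganglia. According to the design text, 4 mice were used and each gave both kinds of ganglia, so the naive ganglia came from animals that had also been operated on. Strain, sex and age are not given in the labels used here. The polyadenylated 3′ ends of RNA were counted (QuantSeq 3′ mRNA-seq, REV), and the question of the series is how nerve crush regulates alternative polyadenylation.

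Kinesins and dynein are motors that walk along microtubules using ATP. In a sensory neuron, whose cell body sits in the ganglion, most kinesins carry vesicles, mitochondria and RNA outward along the axon, while cytoplasmic dynein with its cofactor dynactin carries cargo back, injury signals among them. Other kinesins move chromosomes and close the dividing cell in mitosis, or work in cilia, and are known mainly from dividing or ciliated cells.

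Levels are given as CPM, library-scaled counts that include the library's TMM factor, as mean ± SD with n = 4 in each group. For differences, edgeR's quasi-likelihood test was run on the 13770 genes that passed its filter, and p-values were adjusted over all of them. Standard errors (SE) were derived from it, as the size of the log2 fold change divided by the square root of the F statistic. A transcript is counted from its 3′ end whatever its length, so CPM were compared between genes without division by length. Such levels still depend on where each gene is taken to end, as seen below for Dync1li1, and this could not be checked for every gene. Library totals ran from 17459084 to 22092535 counts in the naive and from 16539644 to 28950551 in the injury group. The labels were checked on 3 genes of the axotomised sensory neuron. Naive ganglia held 60.4 ± 7.88 and injury ganglia 329.0 ± 30.0 CPM of the stress-induced factor Atf3. For the growth cone protein Gap43 these levels were 469.8 ± 60.3 and 1270.0 ± 172 CPM, and for Sprr1a 1.10 ± 0.748 and 624 ± 116 CPM. The summed CPM of 8 pan-neuronal markers was 14940 to 15440 in the naive and 18080 to 21810 in the injury libraries, with Stmn2 and Tubb3 higher and Snap25 lower. Without passing, Rbfox3, Syt1 and Elavl4 had log2 fold changes of −0.30, −0.23 and −0.16, and Uchl1 and Prph of 0.37 and 0.24. The median over the 8 markers was 0.04. Of 7 macrophage markers 6 rose, and their sum went from 7.40–14.5 to 33.8–52.2 CPM, while none of the Schwann cell, fibroblast, endothelial or mural markers passed the test. Of 5 satellite glia markers Glul alone passed, with 334.5 ± 23.7 CPM in the naive and 518.1 ± 51.5 CPM in the injury group (adjusted p = 0.000333). The summed level of 6 neutrophil and lymphocyte markers was 327.7 to 1157 CPM in the naive and 119.9 to 410.4 CPM in the injury libraries; of the 4 tested, all with log2 fold changes below −1, Ltf passed (−1.24, adjusted p = 0.0419), and Cd3e and Cd79a were near 0. Because the libraries are bulk RNA, fewer cells of a type and less RNA per cell cannot be told apart, and the part of these shifts in the results was not tested. Injury library 3 was the highest or the lowest of its group in 34 of the 54 tested motor genes, against 24 to 26 for the other injury libraries, and naive library 2 in 33, against 19 to 31. Calls were also made without naive 2, injury 2 and injury 3 together, a trio taken over from an earlier analysis of these data, whose grounds were not measured again here, and the calls this ended are given beside the genes concerned.

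Motor genes passed the test about as often as all genes did. Of the 54 tested, 5 rose (Kif22, Kifap3, Kif3b, Kif3c and Dynll1), 5 fell (Kifc2, Kif26a, Dynll2, Kif23 and Kif20b) and 44 did not pass the test. The 18.5% called lay close to the 17.8% called among all genes, with 9.26% higher against 10.1% and 9.26% lower against 7.76%. Their median log2 fold change was −0.01, beside −0.02 over all genes tested, and the median size of the change was 0.24, beside 0.25. In 38 of the 44 genes that did not pass, the log2 fold change was smaller than 0.5 in either direction. All 4 injury libraries lay above all naive libraries in 5 motor genes, or 9.26% against 12.6% of all genes, and below them in 8, or 14.8% against 10.8%. Among all genes 1387 rose and 1068 fell, which is 56.5% of the calls in the higher direction. Scaled by library size alone these counts were 1100 and 1581, or 41.0% higher, and 3 motor genes rose and 7 fell. Libraries of the same number were taken to come from the same mouse, which is an assumption. With the mouse in this sense as a block 4 motor genes rose and 6 fell, beside 10.1% and 9.01% of all genes.

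**Figure D1:**
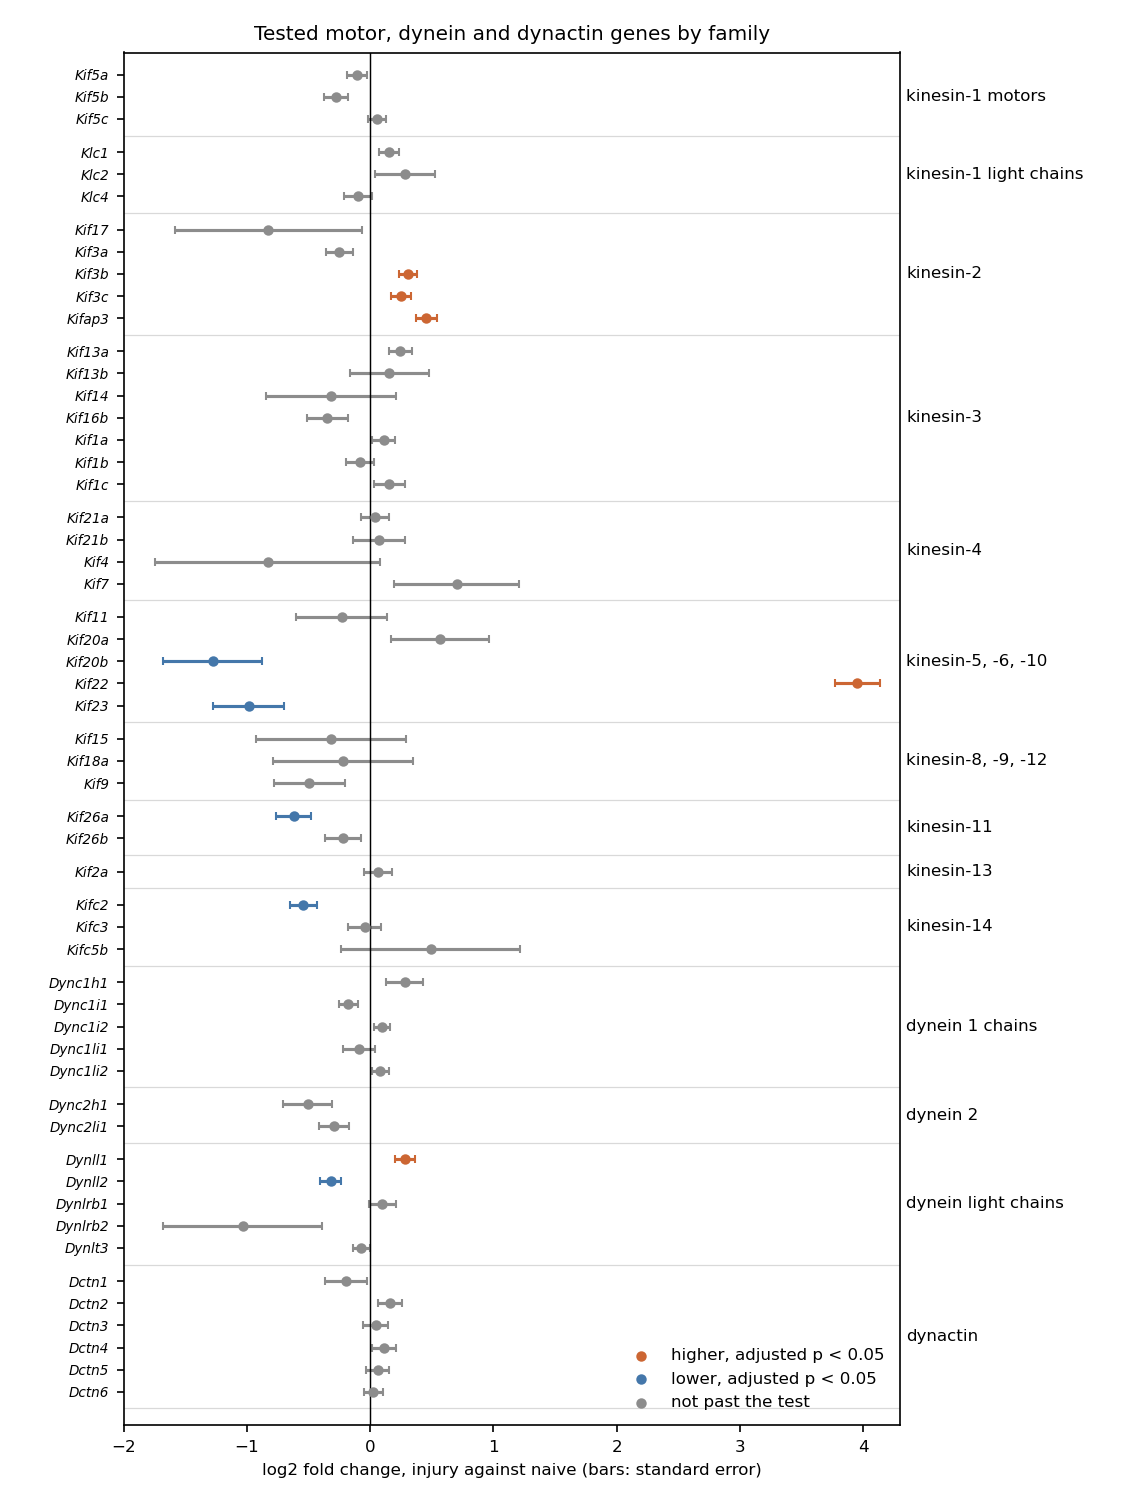
Log2 fold change of injury against naive (x axis) with its standard error for the 54 tested motor, dynein and dynactin genes, grouped by family. Kif22, at 3.95, stands far to the right of all others, and most grey points, the genes that did not pass the test, lie between −0.5 and 0.5.

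Promoters are shown for the genes on which the results turn: Kif22, the gene with the largest change, and the 4 genes of heterotrimeric kinesin-2, of which 3 rose and Kif3a did not. Each covers 250 bases before to 50 bases after the annotated start in RefSeq (build GRCm38.p6), on the gene's strand, and capitals mark matches to motifs searched on both strands. The letters searched were TGANTCA for AP-1, TGACGTCA for the cAMP response element, TGATGNAA for the joint ATF4 and C/EBP element, CCAAT for the CCAAT box, GGGCGG for the GC box, TTTGAA for the cell cycle homology region (CHR) and TTTNNCGC for E2F.

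The promoter of Kif22 lies on the minus strand at chr7:127042371-127042670 and holds a pair of CCAAT boxes and a pair of CHR letters, both of the latter read on the opposite strand.
Kif22: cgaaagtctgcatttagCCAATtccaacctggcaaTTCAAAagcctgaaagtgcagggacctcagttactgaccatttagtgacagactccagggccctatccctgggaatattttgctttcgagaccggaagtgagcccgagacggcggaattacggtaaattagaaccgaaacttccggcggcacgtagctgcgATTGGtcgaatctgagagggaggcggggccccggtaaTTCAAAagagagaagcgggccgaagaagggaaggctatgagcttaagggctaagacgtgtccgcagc

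For kinesin-2, the promoters lie on the plus strand at chr11:53567119-53567418 (Kif3a), chr2:153291166-153291465 (Kif3b), chr12:3364882-3365181 (Kif3c) and chr1:163779333-163779632 (Kifap3). In Kif3a the CCAAT box and the GC box overlap, while Kif3b and Kifap3 hold both apart from each other. Kifap3 also holds a pair of matches to the E2F letters, in which N stands for any base, so these need not be E2F sites. The window of Kif3c holds none of the letters searched.
Kif3a: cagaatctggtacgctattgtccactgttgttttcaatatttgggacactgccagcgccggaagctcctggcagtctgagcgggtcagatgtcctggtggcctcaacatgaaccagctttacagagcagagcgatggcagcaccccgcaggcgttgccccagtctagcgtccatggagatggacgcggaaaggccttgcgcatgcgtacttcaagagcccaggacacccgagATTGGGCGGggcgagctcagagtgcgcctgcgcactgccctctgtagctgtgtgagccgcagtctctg
Kif3b: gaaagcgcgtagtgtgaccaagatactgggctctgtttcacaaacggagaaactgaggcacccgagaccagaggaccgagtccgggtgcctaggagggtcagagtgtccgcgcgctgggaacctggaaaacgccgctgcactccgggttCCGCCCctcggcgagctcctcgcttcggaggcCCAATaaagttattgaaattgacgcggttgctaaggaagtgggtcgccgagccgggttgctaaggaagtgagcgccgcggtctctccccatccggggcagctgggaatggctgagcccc
Kif3c: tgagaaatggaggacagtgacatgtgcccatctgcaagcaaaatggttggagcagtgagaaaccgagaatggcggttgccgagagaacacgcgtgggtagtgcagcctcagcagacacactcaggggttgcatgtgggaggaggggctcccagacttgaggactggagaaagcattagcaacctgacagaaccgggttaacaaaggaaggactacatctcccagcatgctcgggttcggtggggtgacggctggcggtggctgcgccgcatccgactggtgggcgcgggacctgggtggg
Kifap3: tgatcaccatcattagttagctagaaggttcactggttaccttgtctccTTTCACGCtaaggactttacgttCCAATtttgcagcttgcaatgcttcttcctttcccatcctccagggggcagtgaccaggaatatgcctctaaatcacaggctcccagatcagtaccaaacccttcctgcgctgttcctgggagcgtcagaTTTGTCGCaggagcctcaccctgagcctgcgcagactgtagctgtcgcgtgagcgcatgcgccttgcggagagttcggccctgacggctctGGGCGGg

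Of the 69 motor genes 52 had a promoter in the RefSeq table, with 59 windows in all, and 8 of the 10 called genes were among them. The AP-1 letters were in 0 of the 59 windows, against 7.81% of all 32851 promoters, and the joint ATF4 and C/EBP letters in 1.69% against 3.97%. GC boxes were in 66.1% against 35.7%, CCAAT boxes in 45.8% against 37.4%, CHR letters in 25.4% against 17.9%, E2F letters in 13.6% against 5.17% and the cAMP response element in 8.47% against 1.79%. These are counts of letters in a window of fixed length and were not tested. Letters with N, as for E2F, allow any base there, so a match need not be a site of the factor named.

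Kif22 showed the largest change of the motor genes. Its product, a kinesin-10, binds DNA and pushes chromosome arms toward the middle of the spindle in dividing cells. Naive libraries 1 to 4 had 9.39, 14.5, 11.4 and 13.2 CPM, and injury libraries 1 to 4 had 147, 196, 246 and 164 CPM. The groups were thus far apart, with the lowest injury library at 147 and the highest naive one at 14.5 CPM. The log2 fold change was 3.95 (SE 0.18, adjusted p = 2.45e-08 by edgeR's quasi-likelihood test), a 15.5-fold rise, and Kif22 ranked 60 by log2 fold change and 22 by p among the 13770 genes. Its gene spans chr7 127027729 to 127042471 on the minus strand (GRCm38, GENCODE vM21). Maz, a gene on the same strand, lies within 1000 bases past its 3′ end and went from 18.9 ± 1.41 to 26.0 ± 3.88 CPM (log2 fold change 0.46, adjusted p = 0.0280), and the antisense gene Gm31749 lies inside it. No source used here says whether the authors' counting used strand, so reads of Kif22 and Gm31749 cannot be told apart. Which 3′ end of Kif22 the reads came from is also not known, because no poly(A) window on its strand could be assigned to it.

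**Figure D2:**
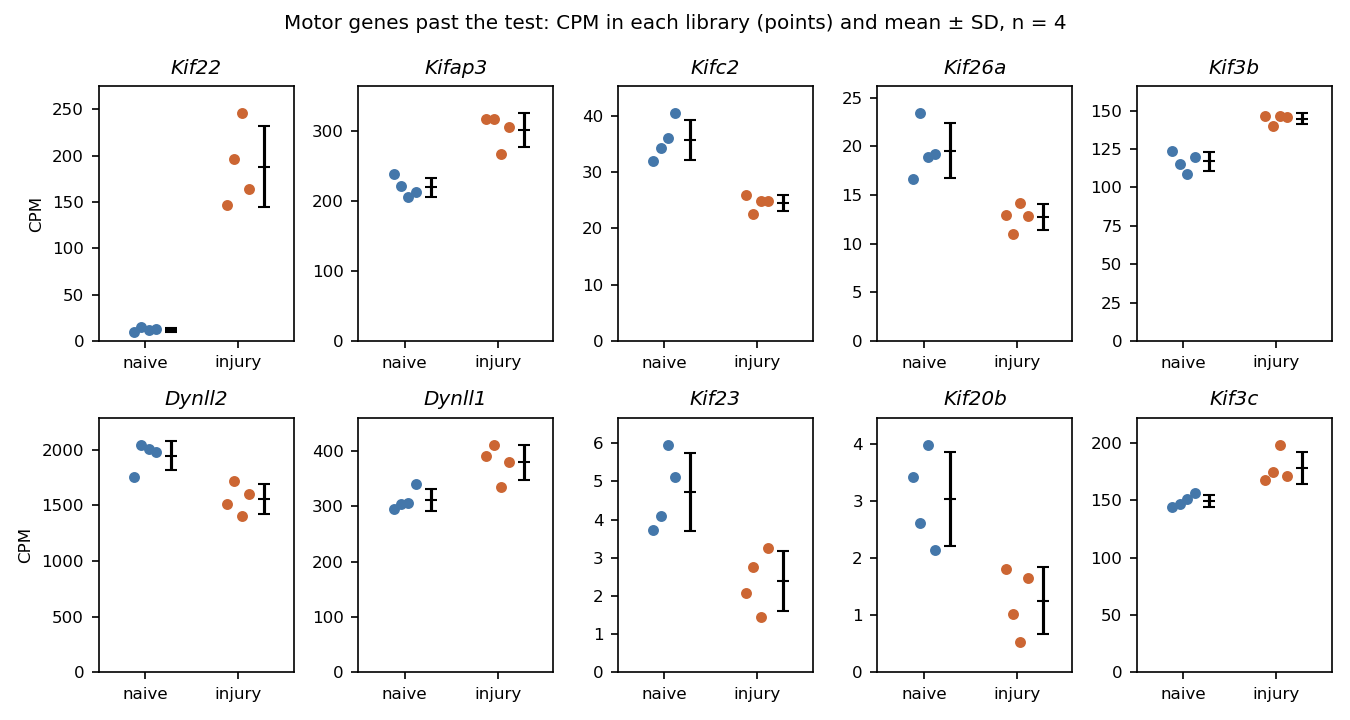
CPM (y axis, starting at 0) of the 10 motor genes past the test in the 4 naive and 4 injury libraries, ordered by adjusted p. Points are libraries in the order 1 to 4, and bars give mean ± SD. The groups do not overlap in 9 of the genes, while in Dynll1 injury library 3, at 336 CPM, lies below naive library 4, at 340 CPM.

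The other kinesins of the spindle and of cytokinesis did not follow Kif22. Kif23, which bundles microtubules at the midbody in cytokinesis, had 3.72, 4.11, 5.96 and 5.11 CPM in naive libraries 1 to 4 and 2.08, 2.76, 1.45 and 3.25 CPM in injury libraries 1 to 4. All injury values were below all naive ones, and Kif23 fell by 0.99 on the log2 scale (SE 0.29, adjusted p = 0.0336). Kif20b, a kinesin-6 that acts late in cytokinesis, had 3.43, 2.63, 3.99 and 2.14 CPM in the naive and 1.81, 1.03, 0.531 and 1.65 CPM in the injury libraries. These groups did not overlap either, and Kif20b fell by 1.28 (SE 0.40, adjusted p = 0.0439). Both genes were at the low end of what could be tested, with 598 and 357 counts over all libraries, and the poly(A) windows assigned to Kif20b held 15.97% of its counts. Neither passed without the 3 libraries named above (adjusted p = 0.0980 for Kif23 and 0.197 for Kif20b), and in the fit that blocks on the mouse Kif20b had an adjusted p of 0.0581. Leaving out naive library 3 or 4 or injury library 1, 2 or 3 gave Kif23 0.0526 to 0.108, and leaving out naive library 1, 2 or 3 or injury library 2 or 3 gave Kif20b 0.0639 to 0.130. Kif11, which pushes spindle poles apart, was at 2.06 ± 0.699 CPM in the naive and 1.75 ± 0.514 CPM in the injury group (log2 fold change −0.23, adjusted p = 0.713), and Kif20a was at 1.84 ± 0.867 and 2.72 ± 0.712 CPM (0.57, adjusted p = 0.361). Kif15 and Kif18a, with Kif14 and Kif4 of the kinesin-3 and kinesin-4 families, which also act in mitosis, had means under 2 CPM and log2 fold changes from −0.83 to −0.22, none past the test.

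Of 18 tested genes that mark dividing cells, Cenpf alone passed the test. This kinetochore protein went from 3.61 ± 1.11 to 24.3 ± 3.86 CPM (adjusted p = 2.71e-06, log2 fold change 2.74 with SE 0.21). Mki67 was at 3.75 ± 2.03 and 2.25 ± 1.06 CPM, Top2a at 8.92 ± 5.75 and 8.30 ± 2.39 CPM, and the median log2 fold change of the 18 genes was −0.29. Their summed level was 56.6 to 114 CPM in the naive and 85.7 to 114 CPM in the injury libraries. How far dividing cells take part in the level of Kif22 was not tested.

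**Figure D3:**
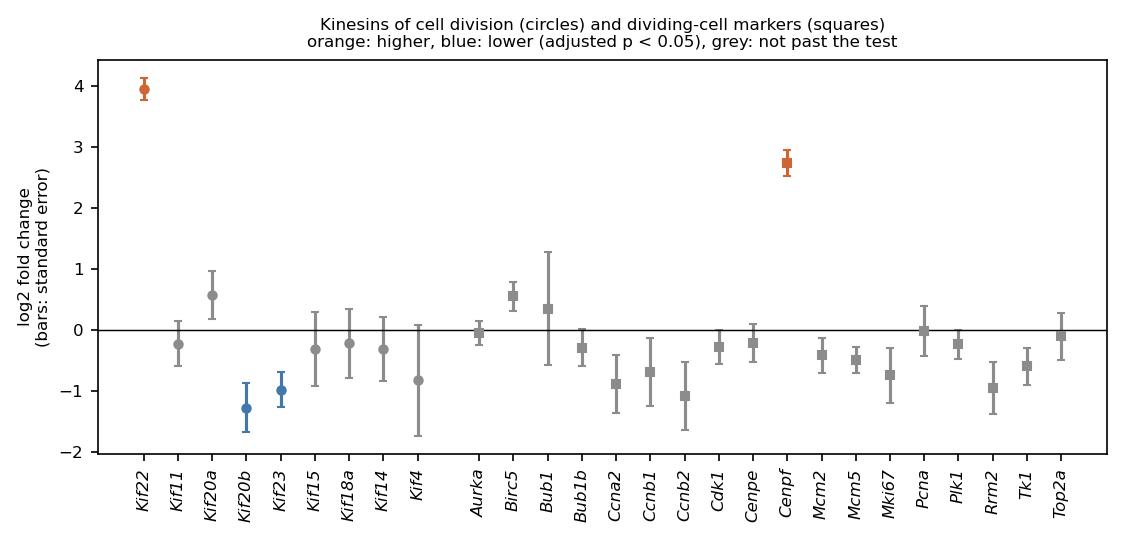
Log2 fold change of injury against naive (y axis) with its standard error for 9 kinesins of cell division (circles) and 18 dividing-cell markers (squares). Kif22 at 3.95 and Cenpf at 2.74 stand above the rest, which lie between −1.28 and 0.57.

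In kinesin-2, 3 of 5 tested genes rose and none fell, beside 10.1% higher and 7.76% lower among all genes. Its heterotrimer is built of a pair of motor chains, Kif3a with Kif3b or Kif3c, and the adaptor subunit Kifap3 that ties them to cargo; it works in axons and in cilia. Kifap3 had 238, 222, 206 and 213 CPM in naive libraries 1 to 4 and 317, 317, 267 and 305 CPM in injury libraries 1 to 4. The groups did not overlap, and Kifap3 rose by 0.46 on the log2 scale (SE 0.08, adjusted p = 0.00222), or 1.37-fold. Kif3b had 124, 115, 109 and 120 CPM in the naive and 147, 140, 147 and 146 CPM in the injury libraries. It rose by 0.31 (SE 0.07, adjusted p = 0.0124), with no overlap between the groups, and without naive library 3 the adjusted p was 0.0537. Kif3c, described in rodent sensory neurons as a motor needed for axon regrowth, had 144, 147, 151 and 156 CPM in the naive and 168, 175, 198 and 171 CPM in the injury libraries. These groups did not overlap, and the log2 fold change was 0.25 (SE 0.08, adjusted p = 0.0452). The call was narrow: blocking on the mouse gave an adjusted p of 0.0588, leaving out the 3 libraries 0.155, and scaling by library size alone 0.149. Without the filter on low counts the adjusted p was 0.0618. Leaving out any single library except injury 1 gave 0.0527 to 0.114. On the opposite strand, Gm48512 lies inside Kif3c and 1110002L01Rik crosses its 3′ end. As strand use is not stated, their reads cannot be told apart from those of Kif3c.

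Kif3a moved the other way without passing the test. It had 251, 183, 218 and 247 CPM in the naive and 194, 163, 192 and 206 CPM in the injury libraries, and the groups overlapped through naive library 2. The log2 fold change was −0.25 (SE 0.11, adjusted p = 0.139), and blocking on the mouse gave an adjusted p of 0.0525. It was 0.0413 without naive library 2 and 0.0322 without the 3 libraries. No other single library left out brought Kif3a past the test, with adjusted p up to 0.314. As a share of the summed counts of Kif3a, Kif3b and Kif3c, Kif3a made up 48.4%, 41.0%, 45.7% and 47.3% in the naive and 38.2%, 34.2%, 35.8% and 39.4% in the injury libraries, which did not overlap. The share of Kif3b went from 23.8% ± 1.44 to 28.3% ± 0.878, again without overlap, and that of Kif3c from 30.6% ± 2.26 to 34.8% ± 2.27, with overlap. The shares were described and not tested. Kif17, the motor of kinesin-2 that works as a homodimer, was at 1.42 ± 1.07 and 0.800 ± 0.556 CPM and did not pass.

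**Figure D4:**
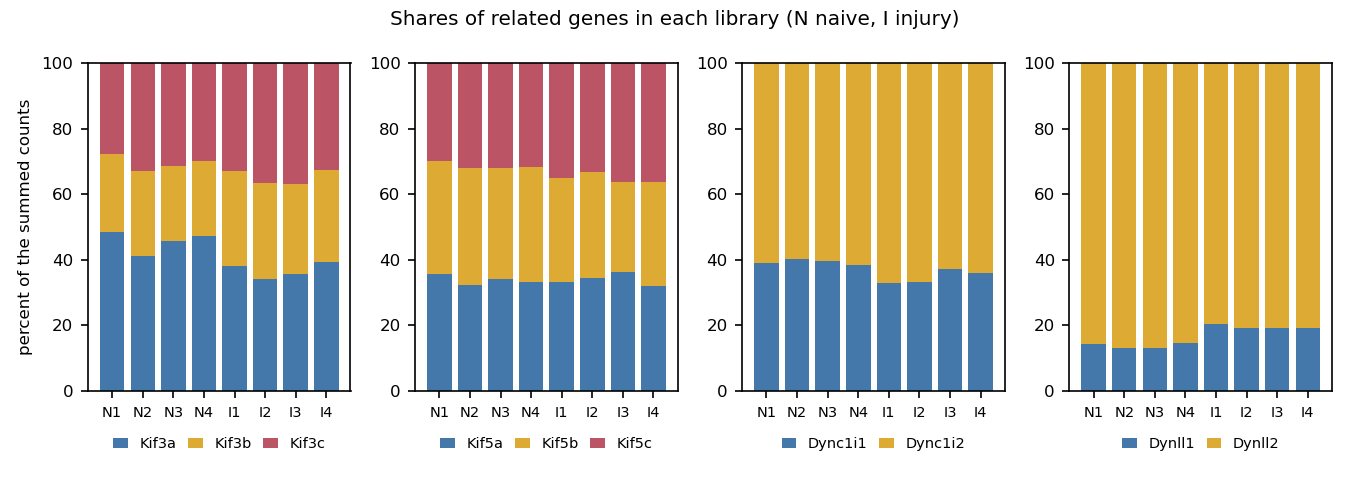
Percent of the summed counts (y axis, 0 to 100) taken by each of a set of related genes in naive libraries N1 to N4 and injury libraries I1 to I4. Kif3a, Kif5b, Dync1i1 and Dynll2 take a lower share in every injury library than in any naive one. Shares within Kif1a to Kif1c, within Klc1 to Klc4 and within Dync1li1 and Dync1li2, not drawn, overlap between the groups for every gene. How often shares separate in other sets of related genes was not measured.

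Kinesin-1, the main motor of fast outward transport in axons, had 0 of 3 motor chains past the test. The neuronal chains Kif5a and Kif5c were at 794.6 ± 78.8 and 734.7 ± 44.6 CPM in the naive group, and at 738.2 ± 18.9 and 764.9 ± 37.2 CPM in the injury group, with adjusted p of 0.400 and 0.636. Kif5b, the chain found in most cell types, had 869, 878, 741 and 767 CPM in the naive and 705, 715, 560 and 707 CPM in the injury libraries. Every injury library was lower, with a log2 fold change of −0.28 (SE 0.10), but the adjusted p was 0.0654. Blocking on the mouse gave 0.0287, and scaling by library size alone 0.0203. Leaving out any single library gave 0.0697 to 0.162, and leaving out the 3 libraries gave 0.120. Of the summed kinesin-1 motor counts, Kif5b made up 34.7% ± 0.828 in the naive and 30.8% ± 2.23 in the injury libraries, and Kif5c 31.4% ± 1.00 and 35.2% ± 1.42, neither overlapping.

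The light chains that bind cargo to kinesin-1 were led by Klc1, the most abundant motor gene, at 2000.2 ± 91.2 CPM in the naive and 2223.6 ± 197 CPM in the injury group (log2 fold change 0.15, adjusted p = 0.220). It made up 95.0% of the light chain counts in both groups (SD 0.450 and 1.45). Klc2 was at 64.0 ± 11.1 and 77.7 ± 34.7 CPM, the spread of the injury group coming with 128 CPM in library 3, and Klc4 at 41.9 ± 4.09 and 39.2 ± 4.31 CPM. None of the 3 tested light chains passed.

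None of the 7 tested kinesin-3 genes passed the test. Kif1b, which carries mitochondria and synaptic vesicle precursors, was at 1146.4 ± 88.2 and 1082.7 ± 171 CPM, and Kif1a, a carrier of synaptic vesicle precursors and dense-core vesicles, at 399.6 ± 17.8 and 431.1 ± 58.5 CPM. Injury library 3 had 827 CPM of Kif1b against 1154 to 1178 CPM in the other injury libraries, and 510 CPM of Kif1a against 386 to 440 CPM. Kif13a, an endosome motor, had 31.7 to 35.0 CPM in the naive and 36.9 to 40.2 CPM in the injury libraries, so that the groups did not overlap (log2 fold change 0.24, SE 0.09, adjusted p = 0.0921). Of kinesin-4, Kif21a, which slows microtubule growth, was at 955.5 ± 43.2 and 983.0 ± 169 CPM (log2 fold change 0.04, adjusted p = 0.838), and without the 3 libraries it was higher in injury, by 0.20 (adjusted p = 0.0326). The microtubule-shortening Kif2a of kinesin-13 was at 126.4 ± 9.05 and 132.0 ± 20.9 CPM.

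Of the rarer kinesins, Kifc2 and Kif26a fell under every alternative processing tried. Kifc2, a neuronal kinesin-14 whose motor sits at the C-terminal end, had 31.9, 34.4, 36.1 and 40.5 CPM in naive libraries 1 to 4 and 25.9, 22.5, 24.8 and 24.9 CPM in injury libraries 1 to 4. The groups did not overlap, and it fell by 0.54 on the log2 scale (SE 0.11, adjusted p = 0.00452). Its span, chr15 76659858 to 76668196, meets the opposite-strand genes Cyhr1 and Foxh1 at its ends. Kif26a, a kinesin-11 without motor activity that is known in mice for restraining GDNF signalling in enteric neurons, had 16.7, 23.4, 18.9 and 19.2 CPM in the naive and 12.9, 10.9, 14.1 and 12.9 CPM in the injury libraries. It too fell without overlap, by 0.62 (SE 0.14, adjusted p = 0.00911). Its relative Kif26b was at 24.4 ± 4.21 and 20.9 ± 2.32 CPM and did not pass (adjusted p = 0.340), and the difference between both was not tested. Kifc3 was at 26.4 ± 4.47 and 25.6 ± 1.98 CPM. Kifc5b had 83 counts in all and its near-identical relative Kifc1 had 44, so their split by the authors' counting is uncertain.

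Cytoplasmic dynein 1 was measured at high levels and none of its 5 larger chains passed the test. The heavy chain Dync1h1, which holds the motor, was at 730.6 ± 107 and 888.3 ± 215 CPM (log2 fold change 0.28, adjusted p = 0.229), with 1203 CPM in injury library 3. The intermediate chains bind dynactin. Dync1i1, the chain more restricted to neurons, had 639, 672, 634 and 580 CPM in the naive and 531, 538, 608 and 554 CPM in the injury libraries. Its groups overlapped through injury library 3 and naive library 4, and the log2 fold change was −0.18 (SE 0.08, adjusted p = 0.130). The adjusted p was 0.0454 without injury library 3 and 0.0273 when scaled by library size alone. Leaving out any other single library gave 0.108 to 0.263, and blocking on the mouse gave 0.145. Dync1i2, the more widespread chain, was at 972.2 ± 33.8 and 1039.3 ± 43.8 CPM (0.10, adjusted p = 0.365). Of the counts of both intermediate chains, Dync1i1 made up 38.4% to 40.3% in the naive and 33.1% to 37.3% in the injury libraries, which did not overlap.

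The light intermediate chains help dynein to hold its cargo adaptors. Dync1li2 was at 621.1 ± 10.3 and 657.0 ± 34.0 CPM (log2 fold change 0.08, adjusted p = 0.453). Dync1li1 was listed at 60.7 ± 6.95 and 57.1 ± 9.34 CPM, but this level depends on where the gene is taken to end. The poly(A) windows assigned to it held 80127 counts against 10156 in the gene table, and the main window, chr9:114724260-114724285, starts 472 bases past the RefSeq end of the gene at 114723788 and inside the GENCODE end at 114724302. With the window sums in its place, an alternative chosen after seeing the data, the level was 473 ± 16.2 and 463 ± 24.6 CPM and the log2 fold change −0.03 (SE 0.07, adjusted p = 0.809). Neither way did Dync1li1 pass, while its share of the light intermediate chain counts, 8.91% ± 1.04 in the naive libraries of the gene table, rests on the shorter gene.

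The light chains of dynein moved in opposite directions in the LC8 pair, small proteins that also bind many partners outside dynein. Dynll2 had 1754, 2045, 2007 and 1982 CPM in naive libraries 1 to 4 and 1516, 1716, 1404 and 1599 CPM in injury libraries 1 to 4, without overlap. It fell by 0.32 on the log2 scale (SE 0.08, adjusted p = 0.0183), and without naive library 3 the adjusted p was 0.0615, without naive library 2 it was 0.0524 and without naive library 4 it was 0.0533. Dynll1 had 295, 305, 306 and 340 CPM in the naive and 391, 410, 336 and 381 CPM in the injury libraries. The groups overlapped by a single library each, and Dynll1 rose by 0.28 (SE 0.08, adjusted p = 0.0322), with an adjusted p of 0.112 when scaled by library size alone and of 0.0615 to 0.101 without naive library 1, 2 or 3 or injury library 1, 2 or 4. Of the counts of both, Dynll1 made up 14.42%, 12.98%, 13.23% and 14.66% in the naive and 20.51%, 19.30%, 19.29% and 19.25% in the injury libraries. These shares did not overlap and do not depend on how libraries are scaled. Dynlt3, a light chain of the Tctex type, was at 955.7 ± 34.3 and 908.9 ± 42.9 CPM, and Dynlrb1 at 144.2 ± 13.1 and 154.6 ± 25.1 CPM, neither past the test. The near-identical copies Dynlt1a, Dynlt1b, Dynlt1c and Dynlt1f were listed at 0 to 14 counts each, which is uncertain where reads match several copies.

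Dynein 2 carries cargo back along cilia, and its genes were rare here. Dync2h1, its heavy chain, had 18.2, 15.7, 11.4 and 17.0 CPM in the naive and 11.7, 8.64, 9.08 and 14.7 CPM in the injury libraries, which overlapped (log2 fold change −0.51, SE 0.20, adjusted p = 0.100). Blocking on the mouse gave an adjusted p of 0.0448, and leaving out injury library 4 gave 0.0315. No other single library left out brought Dync2h1 past the test, with adjusted p up to 0.234. Dync2li1 had 16.1 to 20.3 CPM in the naive and 14.2 to 15.4 CPM in the injury libraries, without overlap (−0.29, SE 0.12, adjusted p = 0.122). Foxj1, which switches on motile cilia genes, went from 57.4 ± 4.92 to 31.5 ± 8.39 CPM (log2 fold change −0.87, adjusted p = 0.00394), and the ciliary gene Rsph1 was at 2.64 ± 0.486 and 4.29 ± 0.908 CPM, without overlap and not past the test (0.70, adjusted p = 0.0740). Tekt1 and Tekt4 of the same list were near 0, at group means of 0.0238 to 0.156 CPM, and 0 of 6 tested axonemal dyneins passed. These lists cover motile cilia only, and what part ciliated cells of any kind have in the level of dynein 2 was not tested.

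None of the 6 dynactin subunits passed the test. Dctn1, the arm that touches dynein and the microtubule, was at 44.0 ± 7.05 and 38.4 ± 8.90 CPM (log2 fold change −0.19, adjusted p = 0.478), and Dctn2, the shoulder subunit dynamitin, at 384.4 ± 34.6 and 429.0 ± 50.2 CPM (0.16, adjusted p = 0.296). The log2 fold changes of Dctn3, Dctn4, Dctn5 and Dctn6 lay between 0.03 and 0.11. Of 6 further dynactin and capping subunits outside the name rule, 0 passed.

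The remaining tested genes were rare and did not pass. Kif16b, an endosome motor of kinesin-3, was at 17.3 ± 2.38 and 13.6 ± 2.63 CPM (log2 fold change −0.35, adjusted p = 0.178), and Kif1c at 27.3 ± 2.36 and 30.4 ± 4.11 CPM (0.16, adjusted p = 0.425). Kif9, a motor of motile cilia, had 2.67 to 3.17 CPM in the naive and 1.38 to 2.61 CPM in the injury libraries; the groups did not overlap, and the log2 fold change was −0.49 (SE 0.29, adjusted p = 0.266). Kif21b was at 6.55 ± 1.26 and 6.91 ± 1.44 CPM and Kif13b at 2.75 ± 0.809 and 3.07 ± 1.04 CPM. Kif7, which acts in hedgehog signalling at the cilium, and the dynein light chain Dynlrb2 had 86 and 114 counts in all and log2 fold changes of 0.70 and −1.03 with standard errors of 0.51 and 0.64. The untested genes beside those named above were Klc3, Kif27, Kif18b, Kif2c, Kif24, Kif6, Kif19a and Kif2b, with 66 to 1 counts each.

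Genes that steer the motors were read from the same fit. Of 20 tested activators and regulators of dynein, 3 rose and 2 fell. Ndel1, which loads dynein together with Lis1, rose from 160.4 ± 9.67 to 212.5 ± 16.8 CPM (log2 fold change 0.41, adjusted p = 0.00474), and the retromer-linked Snx6 from 150.4 ± 4.04 to 187.6 ± 8.58 CPM (0.32, adjusted p = 0.00835). The cargo adaptor Bicd2 went from 24.4 ± 3.79 to 34.4 ± 2.11 CPM (0.50, adjusted p = 0.0162). Nin, a centrosomal adaptor, fell by 0.63 (adjusted p = 0.0163), and Spdl1, an adaptor at the kinetochore, fell by 1.40 (adjusted p = 0.0269) from 1.99 ± 0.726 to 0.751 ± 0.0850 CPM. Pafah1b1, which encodes Lis1, was at 1114.0 ± 41.0 and 1062.0 ± 62.6 CPM and did not pass.

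Of 22 tested adaptors and cargo linkers of kinesins, 2 rose and 1 fell. Madd, which links Rab3 vesicles to kinesin-3, rose by 0.41 (adjusted p = 0.00399), Kidins220 by 0.26 (adjusted p = 0.0424), and Fez1, a kinesin-1 adaptor, fell by 0.84 (adjusted p = 0.00415) from 26.2 ± 3.85 to 14.7 ± 2.97 CPM. Among 37 tested microtubule-associated proteins and tubulin-modifying enzymes, 4 rose and 3 fell. Map7d1, of the MAP7 family that recruits kinesin-1 to microtubules, went from 207.4 ± 9.65 to 527.0 ± 64.3 CPM (log2 fold change 1.35, adjusted p = 9.71e-07), while its relative Map7d2 fell by 0.26 (adjusted p = 0.0323). Vash2, which removes the last tyrosine of tubulin, went from 5.71 ± 1.80 to 20.9 ± 2.85 CPM (1.87, adjusted p = 5.69e-05), and Map6 rose by 0.61 (adjusted p = 0.000441). Ckap5, a microtubule polymerase, fell by 0.63 (adjusted p = 0.000253). The lists' shares of calls, 5 of 20, 3 of 22 and 7 of 37, stand beside the 17.8% of all genes.

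The use of alternative 3′ ends could be tested for 7 motor genes, namely Dctn2, Dctn4, Dctn5, Dync1li1, Kif26a, Kif3b and Kif9, by edgeR's diffSpliceDGE with Simes p-values per gene. It passed the test in 0 of the 7, and in 8 of 1328 genes, or 0.602%. Kif3b came closest, with an unadjusted Simes p of 0.0755 and an adjusted p of 0.9998. Its most distal window, chr2:153333342-153333367, held 72.2%, 76.3%, 74.1% and 79.1% of its window counts in the naive and 69.3%, 66.9%, 61.0% and 71.3% in the injury libraries. These groups did not overlap, and the middle window at 153332157 went from 18.5% ± 2.23 to 24.4% ± 3.85, while the most proximal one at 153330871 went from 6.06% ± 0.926 to 8.48% ± 0.948. In Dctn2 the more proximal of its windows held 62.1% ± 2.04 and 64.4% ± 5.28, in Kif26a the distal one 89.8% ± 0.894 and 88.9% ± 1.61. The 31 motor genes on the minus strand, Kif22, Dynll1 and Dynll2 among them, were not covered. The windows of Kif3a, Kif3c, Kif5c, Kif1c, Kifc2, Dync1i1, Dync1i2 and Dctn1 lie in runs of at least 100 consecutive windows listed at 0 in every library although the genes had counts, so their use was not analysed here. The other plus-strand motor genes, Kifap3 and Klc1 among them, had no pair of windows past the limits on counts and on share of the gene.

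**Figure D5:**
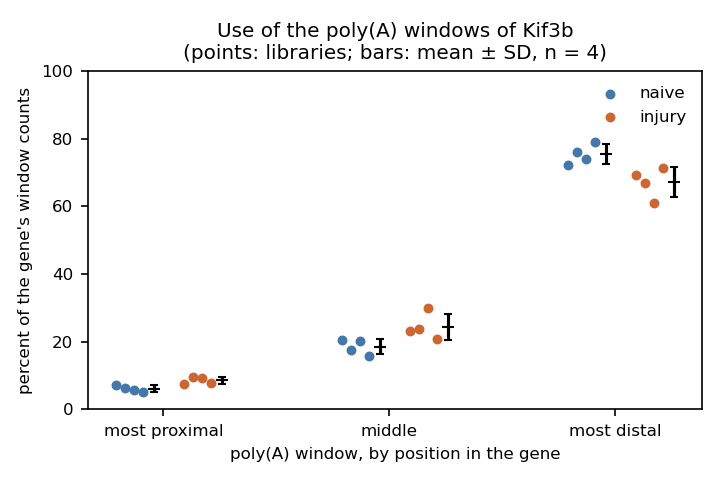
Percent of the window counts of Kif3b (y axis, 0 to 100) at its 3 poly(A) windows, ordered by position in the gene. Points are libraries and bars give mean ± SD with n = 4. The distal window took 75.4% in the naive and 67.1% in the injury group on average, and this change did not pass the test.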

How the data were processed

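The motor genes, their families and all gene lists were chosen with earlier results of these data known. The authors deposited whole-number read counts per gene and per genomic window, not normalized. The submitters' processing notes name bcl2fastq 2.17, STAR, HTSeq and the build GRCm38 (mm10). Strand use, the choice of windows and STAR and HTSeq versions are not stated there. The gene table has 27 rows that carry dates in place of names and hold 0.133% to 0.164% of a library's counts; they stayed in the library sizes and are not named.

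Genes were tested with edgeR 4.0.16 in R 4.3.3 (TMM, filterByExpr, group as the only term), with Benjamini-Hochberg adjusted p over all genes and 0.05 as the threshold. Window use was tested with diffSpliceDGE over windows with at least 5% of a gene's counts, assigned to GENCODE vM21 genes extended by 1000 bases past their 3′ end. The deposited windows are listed in a first and a second block. Only windows in both were used as poly(A) windows, with the counts of the second block, which was taken as the plus strand. Of 243007 window rows, 130352 (53.6%) lie in runs of 100 or more rows with no count in any library. Both tests were tried on simulated counts. Alternatives used DESeq2 1.42.0, limma 3.58.1, other scalings, no filter, left-out libraries and a block for the mouse. The design text ties replicates to mice, and libraries of the same number were treated as 1 mouse. Their deviations from the group mean correlated at 0.17, 0.35, −0.06 and 0.27 in mice 1 to 4. Naive and injury libraries of different number correlated at −0.47 to 0.286, so this pairing is an assumption. The labels do not say more on how the samples were kept separate, so p-values measure the spread between these libraries, which may be partly technical. Named are all motor genes past the test, the 12 most abundant of the others, those whose call changes under an alternative, and at most 4 called genes of each related list; further genes were named after their values were seen.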

Additional observations from a re-analysis of the deposited data

Results flagged for a closer look

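Among 44 groups of 4 libraries checked, those of the 22 motor genes named by rule, 4 held a library far from the other 3, where chance gives about 1 in 20. In Kif3b injury library 2 had 139.7 CPM, with the other injury libraries at 146 to 147 CPM, a gap that is small beside the distance to the naive libraries. In Kif1b injury library 3 had 827.1 CPM and in Kif5b the same library had 559.9 CPM, each lower than the rest of its group. In Kif1a naive library 2 had 426.0 CPM, higher than the other naive libraries.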

How the results depend on the processing

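Over 22 named motor genes and 15 alternatives, 330 log2 fold changes were recomputed: 283 kept direction and side of the threshold, 35 kept their direction and no longer passed, 5 newly passed, and 7 changed sign, none past the test in that setting. The log2 fold change of Kif1b ran from −0.124 to 0.0276 when single libraries were left out and was 0.0743 without the 3 libraries, that of Kif21a ran from −0.025 to 0.151 and was −0.0339 with library size alone, that of Kif5c was −0.0174 with library size alone and that of Kif1a −0.0189 without the 3 libraries. Kif22, Kifap3, Kifc2 and Kif26a passed under all of them. With library size alone 3 motor genes rose. With each library left out in turn, 2 to 4 motor genes rose (2 without naive library 3, 3 without naive 1, naive 2, injury 2 or injury 4) and 2 to 6 fell (2 without naive 3, 3 without naive 4 or injury 2), while 1049 to 1356 of all genes rose and 689 to 1082 fell. With the replicate block 4 motor genes rose and 6 fell, and among all genes 1393 rose and 1240 fell; beside the results named in the report the pairing changed no other call of a named gene. Window use passed the test in 0 motor genes under every alternative run. The cause of the lost calls was not tested; leaving out a library also leaves fewer of them. The 598 and 357 counts of Kif23 and Kif20b left standard errors of 0.29 and 0.40, and the smallest change called in a motor gene was 0.25 on the log2 scale (Kif3c).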
